A study of Mus musculus with 2 samples.

Results

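Macrophage scavenger receptors were examined as a set of 10 genes: Msr1, Marco, Cd36, Cd68, Cd163, Mrc1, Scarb1, Scarb2, Olr1 and Stab1. Probe sets were assigned to the members by annotated gene symbol, and 19 of the 45037 probe sets on the arrays were annotated to them. Each gene had at least 1 probe set, so the account covers 10 of the 18193 genes that the arrays could name. The arrays measured whole-lung RNA of C57BL/6 mice aged 6 to 8 weeks, taken on day 19 after 500000 Lewis lung carcinoma (LLC) cells in 200 µL had been given by tail vein. LLC cells come from a mouse lung carcinoma and form lung tumours when given by vein. One group received vector-transfected LLC cells and the other TDAG8-overexpressing LLC cells, TDAG8 being the acid-sensing G protein-coupled receptor encoded by Gpr65. All animals of both groups therefore carried injected tumour cells, and no lung without them was analysed here. RNA of 10 mice was pooled per group and read on 1 array, so no value has a replicate, an error or a test behind it. Every comparison describes these 2 pools, and the precision is limited by the 2 arrays.

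Scavenger receptors are a loose family of membrane proteins that share a job rather than an ancestor: they bind modified lipoproteins, microbial surfaces, dead cells and other polyanionic or lipid ligands, and carry many of them into lysosomes. In the lung, alveolar macrophages use them to clear inhaled particles and surfactant, and macrophages that enter tumours carry several of them as well. Some members are not confined to macrophages. Cd36 is also a fatty acid carrier of capillary endothelium, fat cells and platelets, Scarb1 takes up lipoprotein cholesterol in many tissues, and Scarb2 is a lysosomal membrane protein of nearly every cell.

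Intensities are given as deposited, in array units, for the vector control first and the TDAG8 pool second. Brightness depends on the probes as well as on the RNA, so a higher intensity of one probe set than of another does not mean more RNA, and summed intensities of gene lists are led by their brightest probe sets. Log2 ratios are those of the TDAG8 pool over the vector control, centred on the median gene, a shift of -0.06. Signals under an array's 50th percentile, which was 26.3 for the control and 24.3 for TDAG8, were raised to that floor, and a ratio against a value below it is a lower bound. Summed intensities take every listed gene with a probe set, as deposited, those below the floor included. Folds are taken after centring and so are relative to the median gene, not plain quotients of the intensities. A gene was counted as different at 2-fold or more. Among the 11017 genes past both floors the log2 ratio had an SD of 0.55 and quartiles of -0.33 and 0.34. Probe sets of the same gene differed from each other by a pooled SD of 0.27, taken over 4769 genes. That SD holds differences between probes and transcripts read on the same 2 arrays. It is the only spread between readings that these arrays give, and it leaves out spread between arrays, labellings and mice. A ratio larger than 0.27 is thus not told from 0 by it. Gpr65, the gene overexpressed in the injected cells, read 32.3, near the control floor of 26.3, and 73.9, a log2 ratio of 1.25. Whole-lung RNA does not separate RNA of the injected cells from that of the host, so this value does not measure the overexpression. The 7 defining genes of lung tissue were all above the floor on both arrays, with Scgb1a1, the club cell secretory protein, at 10112 and 8731 and Foxj1, the factor of ciliated cells, at a log2 ratio of -0.81. All 7 had log2 ratios below 0, with a median of -0.43 and a summed intensity of 42128 and 32421. Scgb1a1 had the highest intensity on both arrays, so quantile normalization by its construction sets the Scgb1a1 ratio to 0. The part of the lung tissue difference in the lower receptor values was not tested.

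The 10 scavenger receptors split into 3 genes that were higher in lungs with TDAG8-overexpressing cells and 7 that were not. Msr1, Cd68 and Marco were each at least 2-fold higher. The other 7 had log2 ratios between -0.56 and -0.03, several of them too small to give a direction, and none was 2-fold lower. Of all 11954 measured genes, 5.40% passed 2-fold upward and 1.22% passed it downward. All 10 members passed the floor on at least 1 array, 9 of them on both, and Msr1 on the TDAG8 array only. The median log2 ratio of the 10 was -0.13, beside 0.00 over all measured genes, so the median does not show the 3 higher genes. Whole-lung RNA cannot tell apart more cells of a type and more RNA of a gene per cell, and this holds for each value below.

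**Figure D1:**
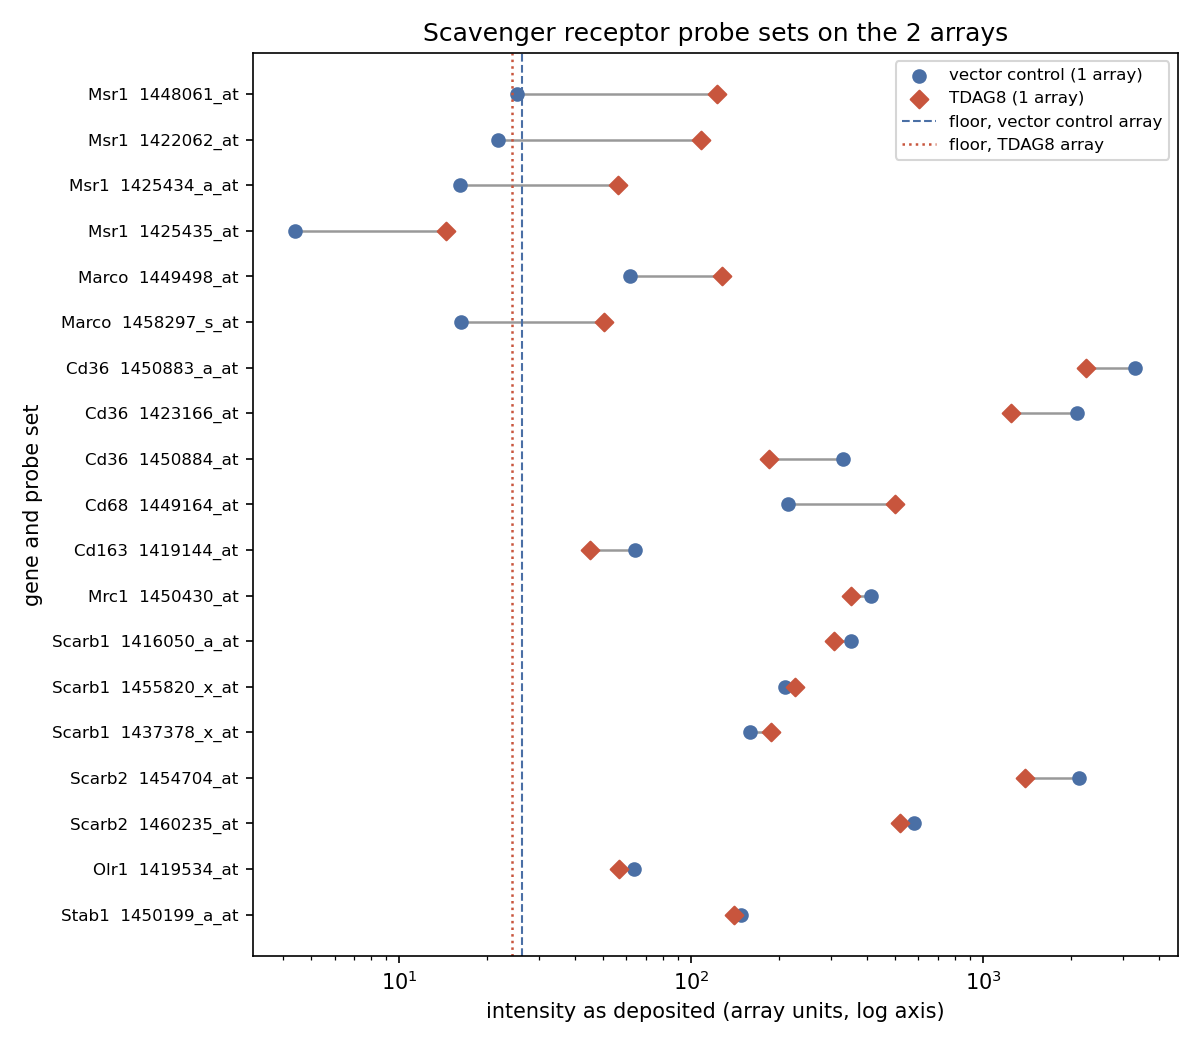
Intensity of all 19 scavenger receptor probe sets, as deposited, on a log axis, with a circle for the vector control array, a diamond for the TDAG8 array and broken lines at the 2 floors. The 4 Msr1 circles lie left of the control floor of 26.3 and their diamonds lie to the right of them, while the 3 Cd36 diamonds all lie to the left of their circles.

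The class A receptors, collagen-stemmed trimers that bind modified lipoproteins and bacteria, were Msr1 and Marco. Msr1 encodes scavenger receptor A, a receptor that monocytes gain as they become macrophages. Its most intense probe set, 1448061_at, read 25.4 in the control and 122.4 in the TDAG8 pool, at least 4.84-fold higher relative to the median gene. That bound is 2.28 on the log2 scale, and 2.22 before centring. The probe set 1422062_at went from 21.8 to 107.8, at least 4.26-fold higher. The probe set 1425434_a_at went from 16.1 to 56.1, at least 2.22-fold higher. All of these crossed the floor, lying under it in the control and over it in the TDAG8 pool. The fourth, 1425435_at, read 4.4 and 14.4 and was below the floor on both arrays, so it gave no ratio. All 4 Msr1 probe sets thus read higher in the TDAG8 pool, but in the control none read above the floor, and the size of the difference has only a lower limit. With the floor at the 65th percentile it was 1.02, still past 2-fold.

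Marco encodes the receptor with collagenous structure, which in the mouse lung is carried by alveolar macrophages and binds unopsonised particles and bacteria. Its probe set 1449498_at read 61.5 and 127.5, a log2 ratio of 1.11 or 2.16-fold, and was above the floor on both arrays. The second, 1458297_s_at, went from 16.3, below the floor, to 50.4, at least 1.99-fold higher. Its ending marks probes that can also match other transcripts. Both probe sets were higher in the TDAG8 pool and their ratios lay 0.11 apart. With an offset in place of the floor the log2 ratio of Marco was 0.86, under 2-fold. Of all measured genes 95.6% had a lower ratio than Marco.

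Cd68, a heavily glycosylated protein of late endosomes and lysosomes that is used as a stain for macrophages, was read by 1 probe set. It went from 214.9 to 499.5, a log2 ratio of 1.27 or 2.42-fold. Both values lay well above the floors. The ratio stayed between 1.19 and 1.30 under all 8 processing alternatives, and 96.9% of measured genes had a lower one.

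Counted over probe sets, 18 of the 19 were above the floor on at least 1 array and 5 were at least 2-fold higher: 3 of Msr1, 1 of Marco and the 1 of Cd68. None was 2-fold lower. The corresponding shares of all 23813 measured probe sets were 4.68% and 1.15%. Probe sets of 1 gene read the same transcripts and are not independent.

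The class B receptors share a large extracellular loop held by 2 membrane spans, and all 3 mouse members of that family, Cd36, Scarb1 and Scarb2, were measured. Cd36 binds oxidised lipoproteins, thrombospondin and long-chain fatty acids. Its 3 probe sets read 3323.1 and 2252.4, 2090.0 and 1246.1, and 330.5 and 184.2. Their log2 ratios were -0.50, -0.69 and -0.79, all below 0 and short of 2-fold. The range over the 3 was 0.28, which is not the same measure as the pooled SD between probe sets.

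Scarb2, also called LIMP-2, carries the enzyme glucocerebrosidase to lysosomes. The probe set 1454704_at read 2129.0 and 1385.1, a log2 ratio of -0.56, the lowest among the 10 members. Its second probe set, 1460235_at, read 578.4 and 520.5, a log2 ratio of -0.09. Both were below 0 but 0.47 apart, so the size of the Scarb2 difference depends on which probe set is read, and the mean over both was -0.32.

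Scarb1 encodes SR-BI, which takes cholesteryl esters from high-density lipoprotein. Its probe set 1416050_a_at read 353.1 and 308.1, a log2 ratio of -0.14. The other two, both with endings that mark probes able to match further transcripts, read 210.0 and 226.1 (log2 ratio 0.16) and 159.5 and 187.8 (0.29). The probe sets of Scarb1 differed in sign, and the mean over all 3 was 0.11, so no direction is given for this gene.

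The members left are receptors of other structural classes, each read by 1 probe set above the floor on both arrays. Cd163 takes up haemoglobin bound to haptoglobin and is carried by tissue-resident and glucocorticoid-treated macrophages. It read 64.1 and 44.9, a log2 ratio of -0.46. At the 65th percentile floor its TDAG8 value was below the floor and the ratio was -0.06. Mrc1, the mannose receptor, a C-type lectin of alveolar and alternatively activated macrophages that clears glycoproteins, read 412.2 and 353.2, a log2 ratio of -0.17. Stab1, stabilin-1, a receptor for acetylated lipoprotein and the matrix protein SPARC found on sinusoidal endothelium and resident macrophages, read 148.3 and 139.9, a log2 ratio of -0.03. Olr1, the lectin-like receptor LOX-1 for oxidised lipoprotein, read 63.9 and 56.7, a log2 ratio of -0.12. The ratios of Mrc1, Stab1 and Olr1 were all smaller in size than the 0.27 by which probe sets of 1 gene differ, so these genes could not be told from 0. A larger ratio, such as that of Cd163, is not told from 0 by that SD either. Cd163, with 17.9% of measured genes lower, and Cd36, with 15.6% lower, lay below the lower quartile of -0.33 among genes past both floors. Both were short of 2-fold.

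**Figure D2:**
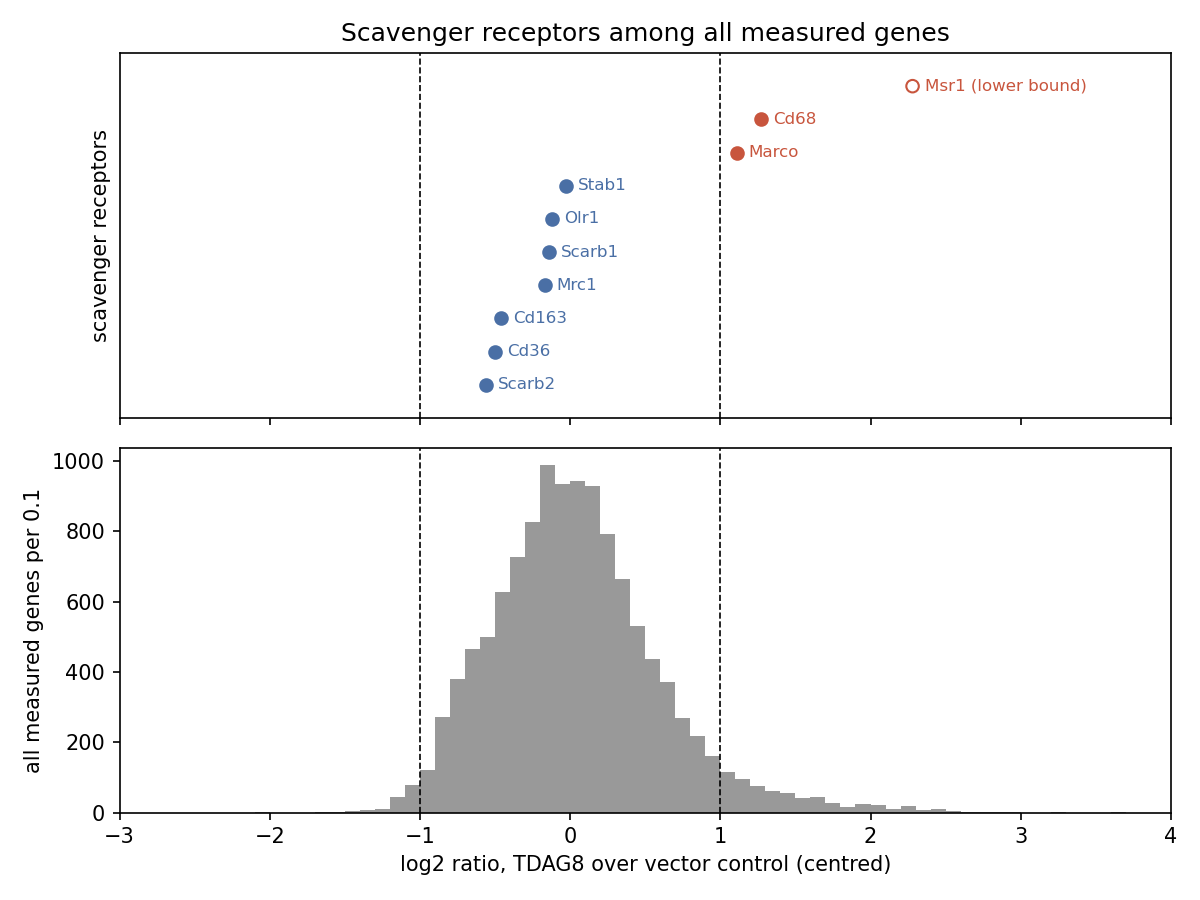
Top, log2 ratio of TDAG8 over vector control for each of the 10 scavenger receptors (open symbol, lower bound), and bottom, a histogram of the same ratio for all 11954 measured genes in steps of 0.1, with broken lines at 2-fold. Msr1, Cd68 and Marco lie beyond the upper line in the right tail of the histogram, and the other 7 lie between -0.56 and -0.03.

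In order of ratio the members ran from Msr1 at 2.28 as a bound through Cd68 at 1.27 and Marco at 1.11 to Stab1, Olr1, Scarb1 and Mrc1 between -0.03 and -0.17, then Cd163, Cd36 and Scarb2 between -0.46 and -0.56. Cd68 and Marco lay closer together than the pooled SD between probe sets of 1 gene. So did neighbours within each of the last 2 groups, and the order of such neighbours carries no weight. The gap from Marco to Stab1 was larger than that SD, which leaves out the spread between arrays.

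Promoter sequences were examined because Msr1, Cd68 and Marco were higher together, and the RefSeq promoter table used here (GRCm38.p6) was matched for 8 of the 10 members: Marco, Mrc1, Cd36, Scarb2, Cd163, Olr1, Cd68 and Stab1. The 250 bases before the start were searched on both strands for 3 motifs. These were GAGGAA, a core bound by the macrophage factor PU.1, TGANTCA, the AP-1 site, and CACGTG, the E-box of lysosomal gene regulators. The windows shown are those of Marco and Cd68, which were higher, and of Olr1 and Mrc1, which hold the same letters without a 2-fold difference. Capitals mark GAGGAA or its reverse complement TTCCTC, and TGAGTCA.
Marco: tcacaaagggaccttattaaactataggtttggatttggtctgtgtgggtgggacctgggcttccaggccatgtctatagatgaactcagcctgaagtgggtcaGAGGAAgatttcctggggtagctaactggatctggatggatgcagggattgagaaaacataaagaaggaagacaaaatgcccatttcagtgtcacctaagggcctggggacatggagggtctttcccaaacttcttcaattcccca
Cd68: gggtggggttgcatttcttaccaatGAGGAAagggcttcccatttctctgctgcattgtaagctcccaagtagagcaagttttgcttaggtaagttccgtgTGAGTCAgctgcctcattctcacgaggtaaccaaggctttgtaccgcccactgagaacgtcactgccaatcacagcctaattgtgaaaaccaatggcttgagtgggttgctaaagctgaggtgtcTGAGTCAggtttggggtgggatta
Olr1: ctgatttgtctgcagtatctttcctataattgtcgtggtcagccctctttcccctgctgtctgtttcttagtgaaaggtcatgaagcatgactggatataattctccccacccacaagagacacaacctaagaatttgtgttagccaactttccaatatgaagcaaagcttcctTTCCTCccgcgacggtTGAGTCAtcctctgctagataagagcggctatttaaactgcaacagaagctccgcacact
Mrc1: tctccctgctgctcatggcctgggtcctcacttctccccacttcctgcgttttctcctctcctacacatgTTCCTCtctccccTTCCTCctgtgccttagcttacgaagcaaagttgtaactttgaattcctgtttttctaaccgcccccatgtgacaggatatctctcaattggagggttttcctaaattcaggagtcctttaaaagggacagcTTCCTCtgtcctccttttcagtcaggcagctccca
They cover chr1:120505025-120505274 on the minus strand for Marco, chr11:69666171-69666420 on the minus strand for Cd68, chr6:129507166-129507415 on the minus strand for Olr1 and chr2:14229164-14229413 on the plus strand for Mrc1. Each is written 5′ to 3′ in the direction of transcription and ends at the base before the start. The Cd68 window holds 1 GAGGAA and 2 TGAGTCA, the nearer of which lies 24 to 18 bases before the start. Marco has 1 GAGGAA at 146 to 141 bases before the start and no TGANTCA. Olr1, with a log2 ratio of -0.12, holds 1 of each, and Mrc1, with -0.17, holds 3 copies of TTCCTC. In all, 5 of the 8 windows hold GAGGAA on either strand (Marco, Mrc1, Olr1, Cd68 and Stab1), beside 23.3% of all 32851 promoter windows of that length, and 2 of 8 hold TGANTCA (Olr1 and Cd68), beside 6.75%. CACGTG was in 0 of 8 windows and in 6.02% of all. No matches of different motifs overlapped in these 8 windows. The letters occur in members on both sides of the 2-fold limit, and a match is not a bound site.

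Other receptors for the same kinds of ligand and for apoptotic cells were read from a list of 24 genes. Of these 17 were measured, 9 above 0 and 8 below, with 3 past 2-fold upward and none downward, and the median log2 ratio was 0.11. That median lay between -0.09 and 0.11 over the processing alternatives, so the list as a whole has no direction. Cd5l, a soluble scavenger protein of tissue macrophages, went from 10.6, below the floor, to 79.5, at least 3.15-fold higher. Scara3, an intracellular class A relative, read 87.7 and 203.2, 2.41-fold higher. Trem2, a lipid receptor of macrophages that engulf cell debris, went from 14.4, below the floor, to 58.5, at least 2.31-fold higher. With the floor at the 65th percentile the bound for Cd5l was 0.40 on the log2 scale and Trem2 was not measured. Ager, a receptor of alveolar type 1 cells and the gene of this list with the highest intensity, was at -0.52.

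Lysosomal and lipid handling genes, which act on what the receptors take in, did not differ by 2-fold. All 18 with a probe set were measured, 6 above 0 and 12 below, and the median was -0.16. Gpnmb, a lysosomal glycoprotein of lipid-laden macrophages, read 202.3 and 366.5, a log2 ratio of 0.91. Plin2, the coat protein of lipid droplets, was at 0.61, the apolipoprotein gene Apoc1 at -0.70 and Npc2, a lysosomal cholesterol carrier, at -0.28. Of the lysosomal membrane proteins among the scavenger receptors, Scarb2 at -0.56 lay within this list's range of -0.70 to 0.91 and Cd68 at 1.27 above it.

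For the haemoglobin pathway that Cd163 serves, 7 of 8 genes with a probe set were measured, 4 above 0 and 3 below, with a median of 0.52. Hmox1, haem oxygenase 1, which breaks down haem, read 152.6 and 499.9, 3.41-fold higher, and was the 1 gene of the list past 2-fold. Blvrb, which reduces the biliverdin so formed, was at 0.70. Hp, the haptoglobin whose complex with haemoglobin Cd163 binds, read 3776.7 and 2410.8, a log2 ratio of -0.59, and Fth1, the ferritin heavy chain, was at -0.02.

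Growth factors and regulators of macrophages showed small differences, with most ratios above 0. Of 18 measured genes 16 were above 0 and 2 below, with a median of 0.31, and none passed 2-fold. Several of the 16, Csf1r among them, were above 0 by less than the pooled SD of 0.27 between probe sets, too little to give a direction. Spi1, which encodes PU.1, read 119.8 and 183.7, a log2 ratio of 0.67. Il13ra1, a receptor chain for interleukins of type 2 responses, was at 0.70, Csf1r, the receptor that macrophages need to survive, at 0.20 and Cebpa, a factor of alveolar macrophage and epithelial development, at -0.76.

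Marker lists of the cells that could carry these receptors gave the setting for the values above, and no listed marker read 0 on either array. Of 17 monocyte and macrophage genes 16 were above 0, 9 were at least 2-fold higher, the median was 1.07, and their summed intensity was 14519 in the control and 19012 in the TDAG8 pool. None was below the floor. Itgam, an integrin of myeloid cells, was at 1.73, or 0.78 as a bound with the 65th percentile floor. Lyz2, a lysozyme gene, had the highest intensity of the list and led the sum, reading 6649.8 and 6002.4, a log2 ratio of -0.09. Which cells of the lung made the Lyz2 RNA was not tested. The 6 measured genes listed for recruited monocytes were all above 0, with a median of 0.90 and a summed intensity of 2168 and 3252. Vcan, a matrix proteoglycan, was at 1.43. Fn1, fibronectin, was at 0.35 and led the sum, reading 1250.9 and 1534.5. Which cells of the lung, tumour cells included, made the RNA of Vcan and Fn1 was not tested. The ratios of Cd68 and Marco, 1.27 and 1.11, were thus close to the median of the macrophage list, and those of Mrc1, Cd163 and Stab1, also macrophage genes, were below it. How far the level of macrophage RNA sets the ratios of Msr1, Cd68 and Marco was not tested.

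Alveolar macrophage genes differed from Marco in direction. Of 11 measured genes 9 were below 0 and 2 above, with a median of -0.58, 1 was 2-fold lower, and the summed intensity was 6274 in the control and 3984 in the TDAG8 pool. Which cells of the lung made the RNA of these 11 genes was not tested. Chil3, a chitinase-like protein of these cells, was at -0.71, and Fabp1, a fatty acid binding protein, at -1.13. Fabp1 was the 2-fold lower gene, and it was under 2-fold in 3 of the 8 alternatives, reaching -0.70 without shared-sequence endings. None of the 11 was below the floor, and the 2 above 0, Plet1 at 0.01 and Il18 at 0.04, were below 0 without centring and after quantile normalization. Marco, at 1.11, lay above the highest of these genes, while Mrc1, which alveolar macrophages also carry, lay between their median and 0. Perivascular and interstitial macrophage genes went both ways, 5 of 8 above 0 with a median of 0.48, Ccl8 at 1.25 and Cbr2 at -0.20. Their range of -0.90 to 1.25 contains all the members except Cd68 and Msr1. Its lower end was Lyve1, and which cells of the lung made the Lyve1 RNA was not tested. The median of this list was 0.22 and 0.27 with the 30th and 65th percentile floors and 0.06 without shared-sequence endings. The summed intensity of this list was 11196 and 9074, most of it from Cbr2, which read 7469.0 and 6234.7. Which cells of the lung made the Cbr2 RNA was not tested, so this sum is not a measure of these macrophages.

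The ratios of Cd36 lay in the ranges of several marker lists, those of alveolar and of perivascular macrophages included. All 13 endothelial genes were below 0, with a median of -0.75, a range of -0.91 to -0.40 and a summed intensity of 13548 in the control and 7884 in the TDAG8 pool. Their lowest was Robo4 at -0.91, and Ramp2, the one with the highest intensity, was at -0.85. The 3 probe sets of Cd36, at -0.50 to -0.79, lay inside that range, and the probe set of Stab1, at -0.03, lay outside it. Of the 4 measured fat cell genes Adipoq was at -0.67 and Lipe at -0.75, and the median was -0.48. The summed intensity of the 5 with a probe set was 476 and 308. Cidea, at the floor with 24.3 and 24.7, was at -0.03 and lay above 0 under 4 of the 8 alternatives. Of the 6 platelet genes 5 were below 0, with a median of -0.32 and a summed intensity of 755 and 782, and Pf4, which macrophages also make, was at 0.67. Lymphatic endothelial genes had a median of -0.66 over 4 measured genes, with Reln at -0.76 and Pdpn at -0.45. Prox1, their defining factor, was below the floor on both arrays. The summed intensity of the 5 with a probe set was 1476 and 998, led by Pdpn, which read 1082.7 and 759.7. Which cells of the lung made the Pdpn RNA was not tested, so this sum is not a measure of lymphatic endothelium. The part of each cell type in the Cd36 values was not tested.

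Neutrophil genes, read because LOX-1 is found on some human neutrophils in tumours, had a median of 0.09 over 6 measured genes. Csf3r was at 0.63 and Lcn2 at -0.12. The summed intensity of the 9 with a probe set was 2349 and 2241. The markers Cxcr2, Camp and Ngp were below the floor on both arrays. Genes of dividing cells had the highest median of the 15 lists. All 6 measured genes passed 2-fold upward, from 1.99 to 2.70, with a median of 2.48, a summed intensity of 625 and 3173, Bub1 at 2.70 and Top2a at 2.44. The 2 pools thus differed in genes of dividing cells as well as of myeloid cells, and the part of that difference in the receptor values was not tested.

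**Figure D3:**
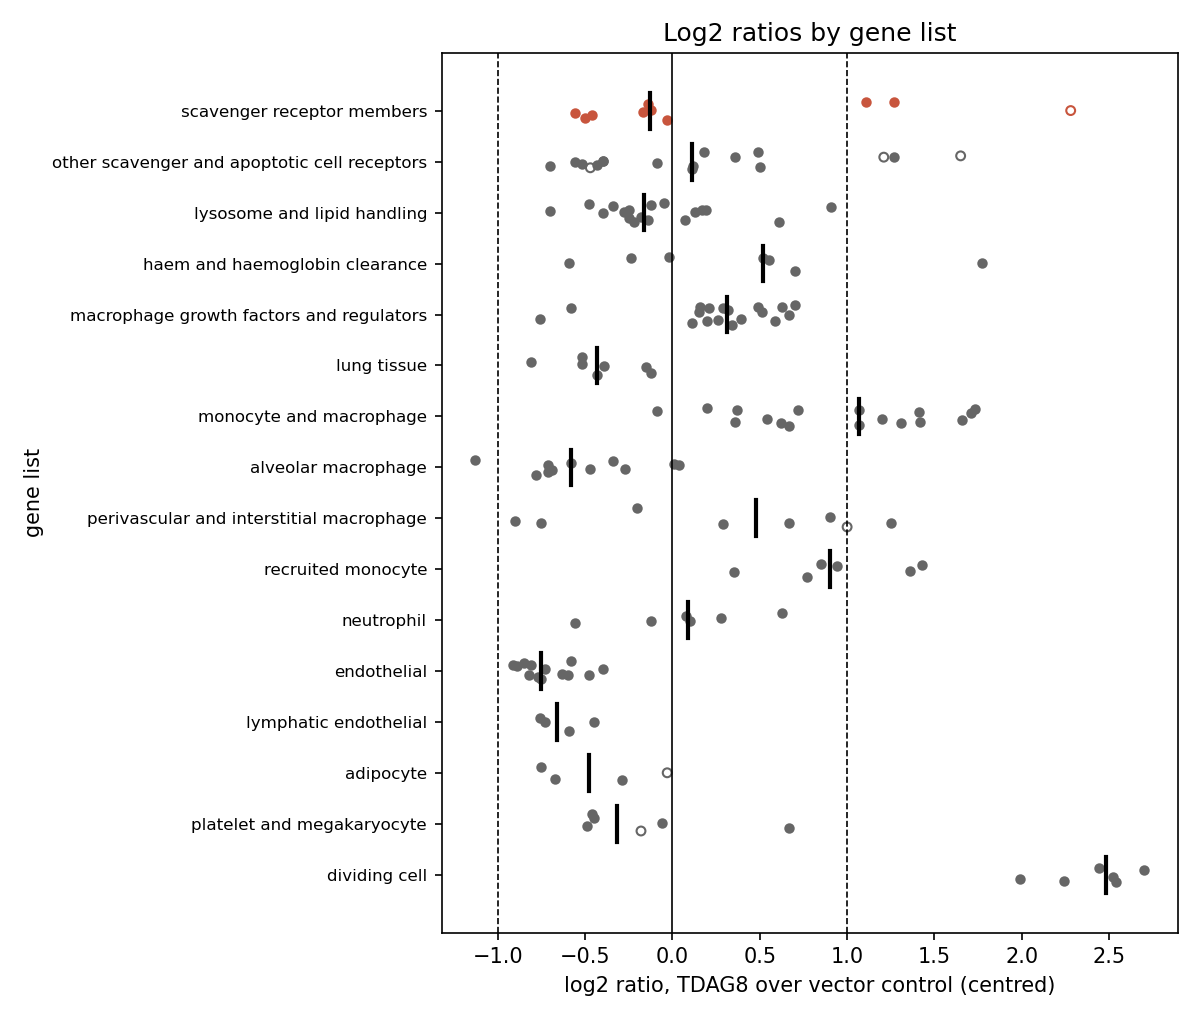
Log2 ratio of TDAG8 over vector control for each measured gene, by gene list, with open symbols for genes above the floor on 1 array only, black bars for list medians and broken lines at 2-fold. The 10 scavenger receptors spread from -0.56 to 2.28, while the 13 endothelial genes lie between -0.91 and -0.40 and 16 of 17 monocyte and macrophage genes lie above 0.

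Across the 8 processing alternatives 77 of 78 recomputed member ratios kept their sign, the exception being Scarb1 with the mean over its probe sets. Msr1 and Cd68 were at least 2-fold higher under all 8, and Marco under 7.

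**Figure D4:**
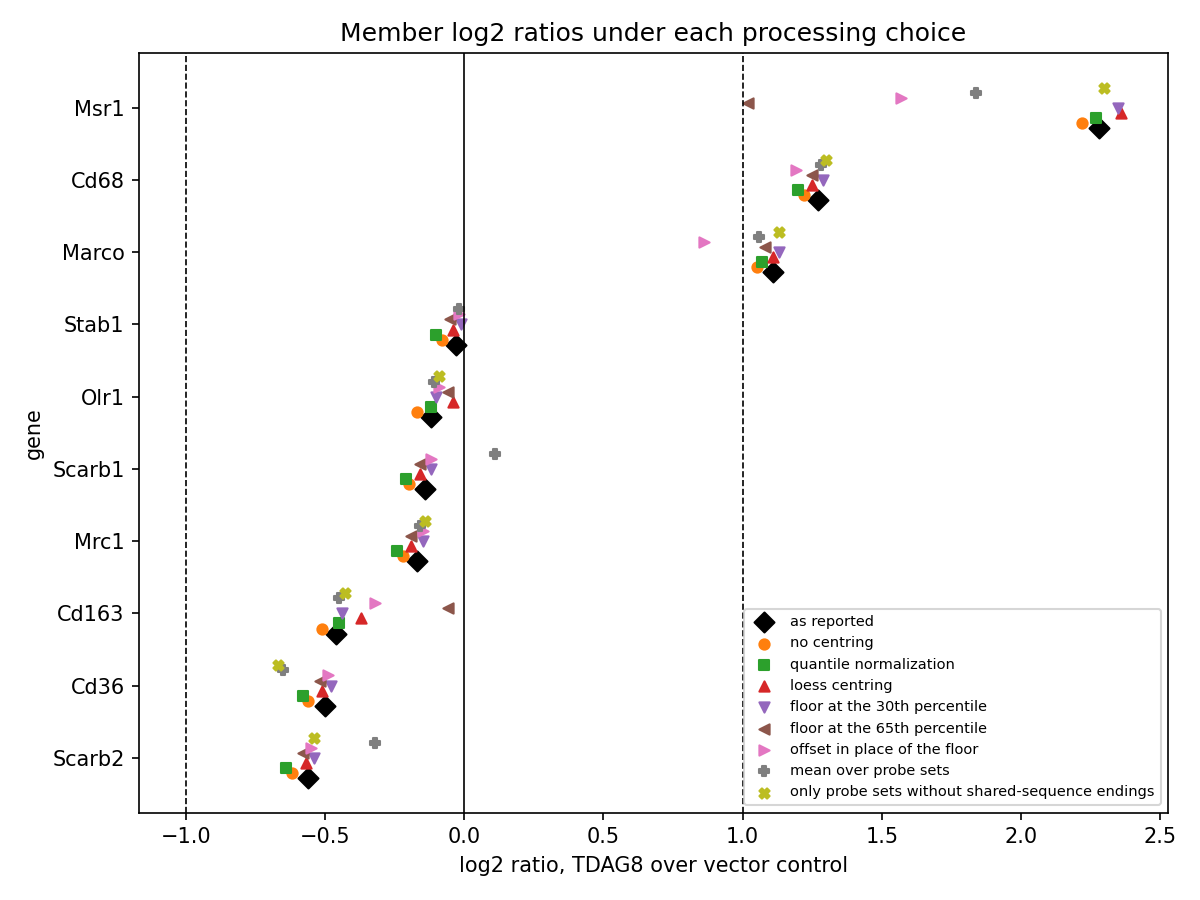
Log2 ratio of each scavenger receptor under the reported processing (black diamond) and 8 alternatives, with broken lines at 2-fold. Msr1 is a lower bound except with the offset and the 30th percentile floor, and its value ranges from 1.02 to 2.36, while Cd68 stays between 1.19 and 1.30.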

How the data were processed

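Total RNA of whole lungs was pooled per group and 2 µg of each pool was labelled with biotin by an oligo(dT)-primed Affymetrix procedure, per the labels' protocols. The authors deposited 1 intensity per probe set on a linear scale, with no detection calls, and the software that computed them was not given in the sources used here. Both columns had a mean of 100 with 2% trimmed from either end, which shows scaling before deposit. Each column matched a labelled sample, and 0 were left over.

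From 45101 probe sets, 64 controls were removed. Of the 45037 left, the platform annotation gave 1 symbol to 34945, several to 932 and none to 9160, and 34741 were matched by gene ID to RefSeq (GRCm38.p6). The files name no build, so gene coordinates are given for promoters only. A gene was represented by the probe set with the highest mean log2 intensity. Values below the floor were raised to it, and genes below it on both arrays were left out. Ratios were fitted on the whole table with Python 3.11.15, numpy 2.4.6, pandas 2.3.3 and statsmodels 0.14.6, and the procedure was tested on simulated data. No test was run, with 1 array per group.

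Named genes were all members, the 3 genes of each pathway list with the largest ratios and its most intense, and for each marker list the most intense and the most different. Exceptions named after their values were seen were Plet1, Il18, Lyve1, Cidea, Cxcr2, Camp, Ngp and Prox1. With 2 arrays no likeness between genes' patterns was measured. The members, the 15 lists and the motifs were chosen with earlier results of these data known. As alternatives, the floor was set at the 30th or the 65th percentile or replaced by an offset of the 50th, centring was dropped or done by loess (span 0.3), arrays were quantile-normalized, probe sets were averaged per gene, and those with shared-sequence endings were dropped.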

Additional observations from a re-analysis of the deposited data

How the results depend on the processing

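The counts of members past 2-fold and the median of the members kept their side under the 8 alternatives, with 2 to 3 members higher, 0 lower and medians from -0.18 to -0.06. The count of 2 came from the offset, under which Marco was at 0.86. Of 78 recomputed member ratios 74 moved by less than 0.27. The other 4 were Msr1 with the floor at the 65th percentile (1.02), with the offset (1.57) and with the mean over probe sets (1.84), and Cd163 with the 65th percentile floor (-0.06), where the TDAG8 value was below the floor. Scarb1 turned from -0.14 to 0.11 with the mean over probe sets, 2 of which read above 0. Scarb1 and Stab1 had no value without shared-sequence endings. The endings dropped included _a_at, carried by 1416050_a_at of Scarb1 and 1450199_a_at of Stab1, which marks probes shared by transcripts of 1 gene. Over all genes the count of higher genes was 646 and went to 421 with the 65th percentile floor. That of lower genes was 146 and went to 350 with the 30th percentile floor, 68 with the 65th and 32 with the offset. Fewer genes were measured with the higher floor, 9660 in place of 11954, and more with the lower one, 14856, and an offset shrinks ratios of dim genes. Among named genes of other lists, Fth1 was at 0.00 with the 30th percentile floor. Scgb1a1 was at 0.00 after quantile normalization, which gives the highest probe set of each array the same value. Signals near the floor limit Msr1, as they do Cd5l, which ranged from 0.40 to 2.98, and Trem2, which was measured in 7 of 9 settings. No paired analysis was possible because each group had 1 array.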
